A study of Mus musculus with 13 samples.

Results

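The genes described here are 40 genes of macrophages, monocytes and Fc receptors, out of 46958 genes in the count table of purified mouse glomeruli. They were chosen by symbol, as genes of myeloid identity, Fc gamma receptors and the phagocyte oxidase, and all 40 symbols were found in the table. Glomeruli, the filtering units of the kidney, had been isolated with magnetic beads and their messenger RNA was sequenced in 13 libraries. Per the labels, 4 libraries came from kFRA (LCDD) mice, 4 from DH-LMP2A mice and 5 from WT mice, all aged 6 months and all on one mixed background, C57/BL6x129/SVxBALB/c. LCDD is light chain deposition disease, in which a monoclonal immunoglobulin light chain deposits along glomerular basement membranes and in the mesangium. DH-LMP2A mice are known as a line in which the viral protein LMP2A, expressed from the immunoglobulin heavy chain locus, sustains B cells that make no heavy chain. The labels do not say whether the LCDD mice also carry the DH-LMP2A allele. They also name no promoter of the light chain allele and no sex. Each library pooled 3 mice, except WT replicates 3, 4 and 5, which were 1 mouse each. Every title carries 1 of 4 six-digit codes, whose meaning is not stated. Called A to D here in rising order, the codes A, B, C and D stood on replicates 1 to 4 of both LCDD and DH-LMP2A, code A on WT replicate 1, code C on WT replicate 2 and code D on WT replicates 3 to 5.

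Macrophages arise from embryonic precursors or from blood monocytes, depend on the growth factor CSF1 and its receptor, and take their identity from transcription factors such as PU.1 (Spi1). Fc gamma receptors bind immunoglobulin G: Fcgr1, Fcgr3 and Fcgr4 are activating and signal through the ITAM adaptor FcR gamma (Fcer1g), while Fcgr2b carries its own inhibitory motif. A light chain without its heavy chain has no Fc part, so the Fc receptors are of interest here as markers of the phagocytes that carry them and as a reading of their activating and inhibitory sides. In a bulk library of glomeruli, fewer macrophages and less RNA per macrophage cannot be told apart.

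The 5 promoters shown are those of the 4 members called with the title codes as a block (Mrc1, Irf8, Ccr2 and Cx3cr1) and of Fcgr4, an Fc receptor gene that holds a PU.1-like element. Each is the 250 bases before the RefSeq gene start on GRCm38.p6, written 5′ to 3′ on the gene's strand, with capitals marking GAGGAA, the core of the PU.1 element, which reads TTCCTC where it lies on the other strand.
Mrc1, chr2:14229164-14229413, plus strand: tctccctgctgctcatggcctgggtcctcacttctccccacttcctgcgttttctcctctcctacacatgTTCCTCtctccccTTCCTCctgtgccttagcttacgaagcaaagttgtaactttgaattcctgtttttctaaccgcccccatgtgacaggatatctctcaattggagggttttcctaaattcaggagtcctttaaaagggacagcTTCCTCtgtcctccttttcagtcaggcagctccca
Irf8, chr8:120736108-120736357, plus strand: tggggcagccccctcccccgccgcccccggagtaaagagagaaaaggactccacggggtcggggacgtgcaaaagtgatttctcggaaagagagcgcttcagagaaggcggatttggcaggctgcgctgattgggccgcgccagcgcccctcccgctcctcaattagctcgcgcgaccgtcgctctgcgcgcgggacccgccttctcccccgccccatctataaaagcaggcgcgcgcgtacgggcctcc
Ccr2, chr9:124101933-124102182, plus strand: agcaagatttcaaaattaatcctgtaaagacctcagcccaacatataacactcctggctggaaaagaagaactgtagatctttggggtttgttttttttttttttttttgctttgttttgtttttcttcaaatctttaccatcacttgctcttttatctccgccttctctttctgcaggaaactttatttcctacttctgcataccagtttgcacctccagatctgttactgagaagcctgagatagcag
Cx3cr1, chr9:120068297-120068546, minus strand: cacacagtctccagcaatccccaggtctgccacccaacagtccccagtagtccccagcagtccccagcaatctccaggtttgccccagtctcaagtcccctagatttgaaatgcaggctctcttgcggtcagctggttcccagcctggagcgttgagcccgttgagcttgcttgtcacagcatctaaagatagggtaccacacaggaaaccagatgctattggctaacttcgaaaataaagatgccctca
Fcgr4, chr1:171018676-171018925, plus strand: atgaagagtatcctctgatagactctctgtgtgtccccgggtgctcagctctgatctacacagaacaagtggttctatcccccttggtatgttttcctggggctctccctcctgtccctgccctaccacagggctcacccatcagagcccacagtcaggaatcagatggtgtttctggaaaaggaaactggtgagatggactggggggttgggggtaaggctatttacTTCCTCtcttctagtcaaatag
The Mrc1 window held 3 matches to GAGGAA, the Fcgr4 window held 1, and those of Irf8, Ccr2 and Cx3cr1 held 0. RefSeq promoters were found for 32 of the 40 members, and 15 of these 32 (46.9%) held GAGGAA on either strand, against 6252 of 27025 promoters of the same length (23.1%). Where several windows were listed, members took the one nearest the deposited 5′ end. The set of 27025 took the first listed for each gene, so the shares are not built alike. The longer form GAGGAAGT, which contains GAGGAA, was in 3 of the 32 (9.38%; Ly6c2, S100a8 and Fcgr4) and in 660 of all the promoters (2.44%). The Ccr2 start used by RefSeq lies 233 bases downstream of the 5′ end of the deposited gene. Most of the Ccr2 window shown thus lies within the span of the gene as counted. Those of Cybb, Lgals3 and Fcgr3 lie 18447, 6109 and 5532 bases away, and those of Fcgr2b and Ptprc 476 and 403. Fcgr3 and Ptprc are among the members with a GAGGAA match, so not all windows lie at the start of the gene as counted. For 29 of the 32 windows, the bases after the start were found in an annotated transcript of the gene. A match is a string of letters and was not tested as a binding site.

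Library totals ranged from 18604929 to 26544422 counts in LCDD, from 17274426 to 26143996 in DH-LMP2A and from 16687509 to 30587890 in WT. Values are given as CPM, read counts per library scaled to a common total with TMM factors, and 3 counts, the floor used here, correspond to 0.0981 to 0.180 CPM depending on the library. Podocyte markers summed to 7154 to 33979 CPM and mesangial markers to 3140 to 8793 CPM across the 13 libraries, so the markers of the labelled tissue were present in all of them. The podocyte sum was lowest in LCDD replicates 1 and 2, WT replicate 1 and DH-LMP2A replicate 1, at 7154, 13170, 15032 and 16270 CPM. Their tubule markers summed to 2204, 2580, 3909 and 4524 CPM, against 285 to 3369 CPM elsewhere. The 40 members summed to 1253, 1245, 990 and 939.5 CPM in them, and elsewhere to 532 to 855 CPM, except for 1248 CPM in WT replicate 2. The part of podocyte content in the members' levels was not tested. Of the 40 members, 35 passed the filter on low counts. Ms4a7, Trem2, Cd163, Lyz1 and Gpnmb did not, and they are given as counts. The test was edgeR's quasi-likelihood test over 16738 genes with Benjamini-Hochberg adjustment, and a gene is called where its adjusted p is under 0.05. It was run with the genotype alone and, as an alternative, with the title code as a replicate block, which compares libraries of the same code.

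Per kb of exon, a scale on which genes can be compared, members spanned a wide range of levels. Lyz2, the macrophage form of lysozyme, had the highest mean level over all libraries at 66.0 CPM per kb. Mrc1, the mannose receptor, followed with 45.8 CPM per kb and Csf1, the macrophage growth factor, with 35.6 CPM per kb. The macrophage surface marker Adgre1 (F4/80) stood far below at 0.658 CPM per kb and the high-affinity Fc receptor Fcgr1 at 0.498 CPM per kb. The CSF1 receptor gene Csf1r, with 4.34 CPM per kb, was ranked 13 of 40. Thus Mrc1 and Csf1 had levels well above those of Adgre1, Fcgr1 and Csf1r, but below that of Lyz2. Both are known to be made by other cells too, for example Mrc1 by some endothelial cells and Csf1 by stromal cells. Which cells made them here was not tested.

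**Figure D1:**
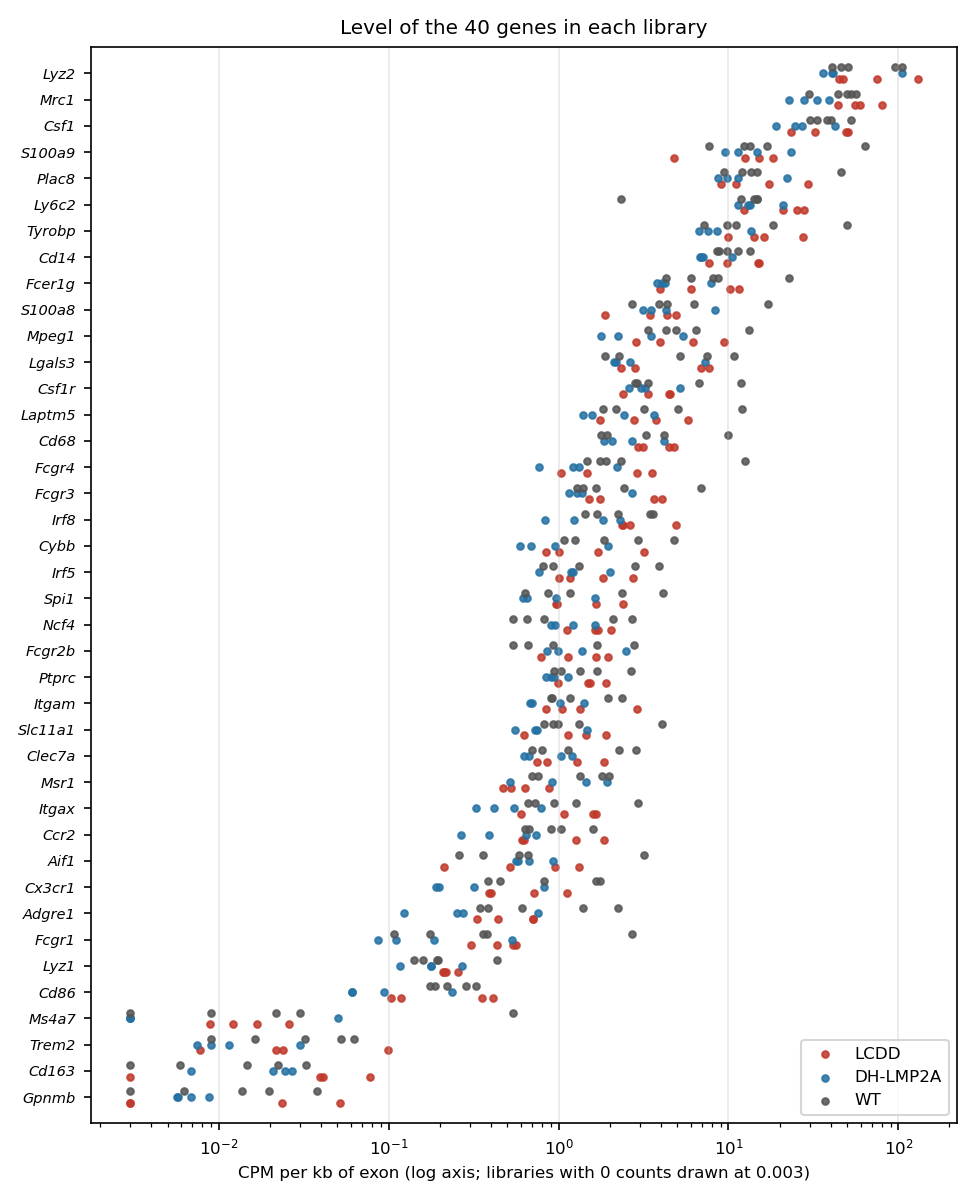
Levels of the 40 members per kb of exon (CPM per kb, log axis), 1 point for each of the 13 libraries, coloured by genotype, with genes in the order of their means and libraries with 0 counts drawn at the left edge. Lyz2, Mrc1 and Csf1 lead with means of 66.0, 45.8 and 35.6 CPM per kb, while Ms4a7, Trem2, Cd163 and Gpnmb have means between 0.0139 and 0.0551 CPM per kb.

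With the genotype alone, 0 of the 35 tested members were called in any comparison. In LCDD against DH-LMP2A 2.00% of all genes tested were called, in LCDD against WT 1.84% and in DH-LMP2A against WT 0.627%. By the unadjusted p under 0.05, 6 members passed in LCDD against DH-LMP2A, 2 in LCDD against WT and 8 in DH-LMP2A against WT, where 13.1%, 12.0% and 12.5% of all genes did. DESeq2 called 1 member in LCDD against DH-LMP2A, Mrc1 (2.86% of the 35, where 4.85% of all genes were called). It called 0 members in LCDD against WT and in DH-LMP2A against WT (4.34% and 2.74% of all genes). With the block, 3 members were called higher in LCDD than in DH-LMP2A (Mrc1, Irf8 and Ccr2; 8.57% of the 35, where 3.24% of all genes were called higher and 6.10% in either direction), 0 between LCDD and WT (3.20% of all genes), and 2 were called lower in DH-LMP2A than in WT (Ccr2 and Cx3cr1; 5.71%, where 1.58% of all genes were called lower and 3.36% in either direction). With 35 members, each of these shares rests on 2 or 3 genes.

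Signs of the fitted differences were more uneven than the calls. In LCDD against DH-LMP2A the log2 difference was positive for 31 of 35 members, with a median of 0.62, where 49.0% of all genes were positive with a median of -0.01. In DH-LMP2A against WT it was negative for 33 members, with a median of -0.68 (all genes: 0.00). In LCDD against WT 12 were positive and 23 negative, with a median of -0.19 (all genes: 0.01). With the block, 32, 1 and 4 of the 35 members were positive in LCDD against DH-LMP2A, DH-LMP2A against WT and LCDD against WT, with medians of 0.59, -0.97 and -0.43, so that the last was over 1.5 times larger than with the genotype alone. The 3 comparisons share libraries, so these medians are not separate pieces of evidence. Nor are the signs of single members, since most members peaked in the same library of each genotype. The median of LCDD against DH-LMP2A was 0.31 without LCDD replicate 2 and 0.94 without DH-LMP2A replicate 1. Without WT replicate 2, the median of DH-LMP2A against WT was -0.34, and that of LCDD against WT was 0.21, with 26 of 35 members positive.

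**Figure D2:**
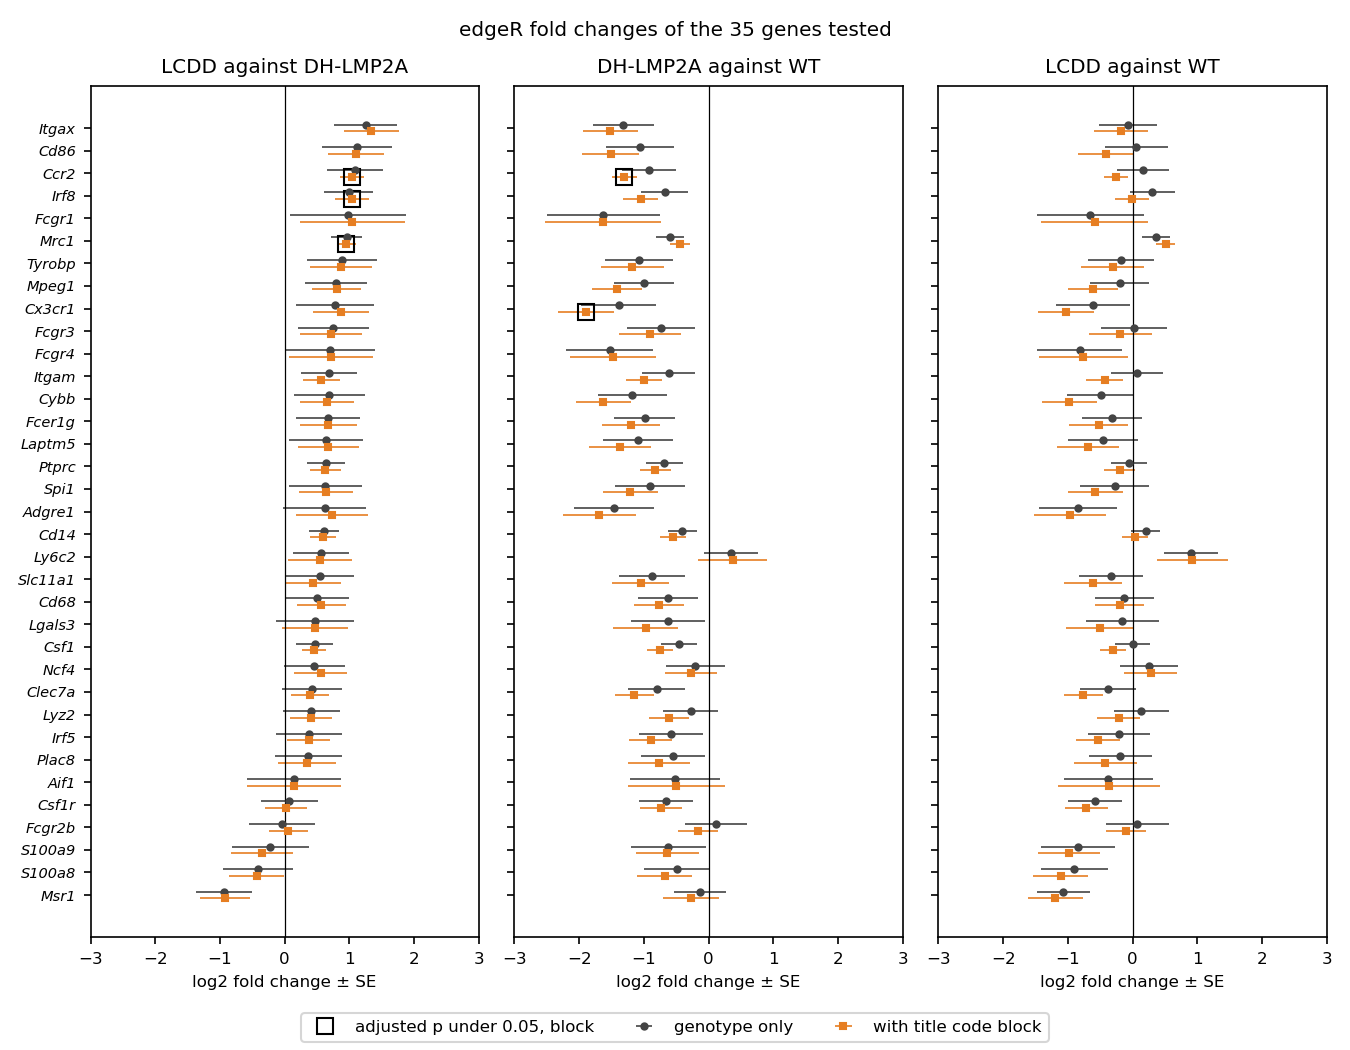
Fitted log2 differences of the 35 tested members in the 3 comparisons, with bars of 1 standard error, from the fit with the genotype alone (circles) and with the title code block (squares; called members are framed). Circles lie to the right of 0 for 31 members in LCDD against DH-LMP2A and to the left of 0 for 33 in DH-LMP2A against WT, and in LCDD against WT 12 lie to the right; 0 circles passed the adjusted test.

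Single libraries set much of the spread among the members. WT replicate 2 had the highest level of all 13 libraries for 24 of the 35 tested members, and the highest of the WT libraries for 27, where it was the highest WT library for 33.4% of all genes. In LCDD, replicate 2 was highest for 27 members (23.4% of all genes), and in DH-LMP2A replicate 1 was highest for 29 (36.4% of all genes). DH-LMP2A replicate 4 was the lowest of all 13 libraries for 14 members. Mrc1 did not follow this order: WT replicate 2, so often the highest, had the lowest Mrc1 level of the WT libraries. WT replicate 2 also had an interferon response sum of 2264 CPM over 20 genes, against 514.0 to 621.4 CPM in the rest of WT. All 20 interferon response genes were positive in LCDD against DH-LMP2A and all 20 negative in DH-LMP2A against WT, with 0 called with the genotype alone. With the block, Xaf1 (1.62 ± 0.28, edgeR adjusted p 0.0102) and Ifi44 (0.87 ± 0.21, edgeR adjusted p 0.0383) were higher in LCDD than in DH-LMP2A, Xaf1 was higher in LCDD than in WT (1.36 ± 0.27, edgeR adjusted p 0.0267), and Ifi44 was lower in DH-LMP2A than in WT (-1.05 ± 0.22, edgeR adjusted p 0.0351). The interferon sum was 682.0 to 1381 CPM in LCDD and 403.5 to 631.6 CPM in DH-LMP2A, and its part in the members' levels was not tested.

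**Figure D3:**
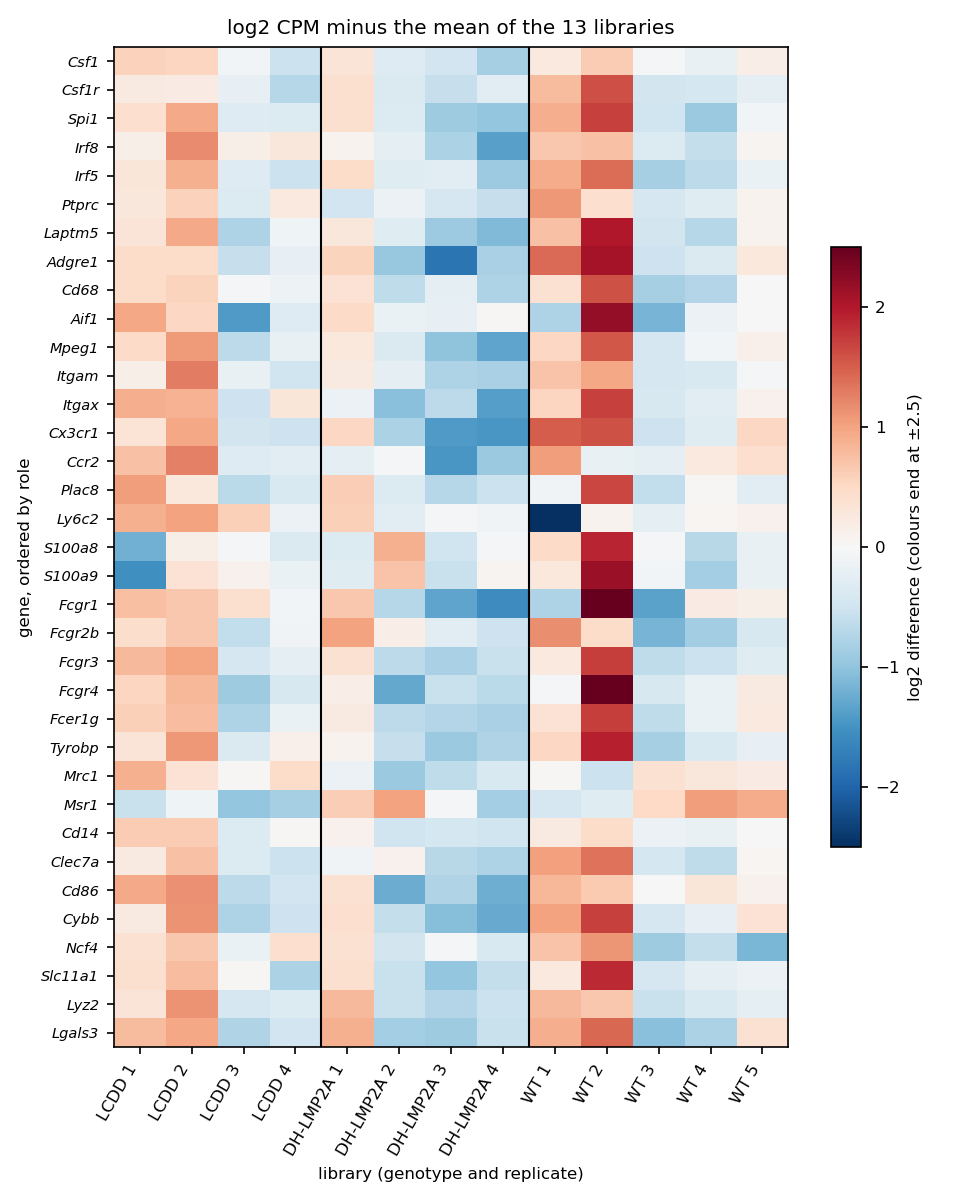
Deviation of each tested member from its mean log2 CPM over the 13 libraries, 1 column per library, with members ordered by role. WT replicate 2 is highest for 24 of the 35 members and DH-LMP2A replicate 4 is lowest for 14, and Mrc1 stands out as low in WT replicate 2.

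Within codes, the LCDD library exceeded the DH-LMP2A library in 21 of the 35 members at code A (median log2 difference 0.07), in 32 at B (1.29), in 28 at C (0.34) and in 29 at D (0.52). Between DH-LMP2A and WT, 10, 1 and 6 members were positive at codes A, C and D, with medians of -0.33, -2.33 and -0.44. Between LCDD and WT, the counts were 14, 2 and 19, with medians of -0.18, -1.82 and 0.01. Code C is the one where WT replicate 2 is the sole WT library. WT has 0 libraries with code B, the code with the widest gap between LCDD and DH-LMP2A.

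Mrc1, an endocytic receptor for mannose-bearing glycoproteins, lies at chr2:14229392-14332057 and was the member with the smallest p. It stood at 512, 354, 280.5 and 379 CPM in LCDD replicates 1 to 4, at 249, 145, 178 and 213 CPM in DH-LMP2A replicates 1 to 4, and at 281, 190.2, 359, 336 and 318 CPM in WT replicates 1 to 5. All 4 LCDD libraries were above all 4 DH-LMP2A libraries, and the WT libraries overlapped both. The log2 difference of LCDD from DH-LMP2A was 0.96 ± 0.23 (SE), with an edgeR adjusted p of 0.0578, and 0.95 ± 0.14 with the block, adjusted p 0.00593. LCDD was higher at 4 of 4 codes, with log2 differences of 1.04, 1.28, 0.65 and 0.83. Without LCDD replicate 3 or without DH-LMP2A replicate 1, Mrc1 passed with the genotype alone too, at edgeR adjusted p of 0.036 and 0.0386. The call with the block was lost without code D (edgeR adjusted p 0.0849). LCDD against WT gave 0.36 ± 0.22 (edgeR adjusted p 0.599; 0.0973 with the block), and DH-LMP2A against WT gave -0.60 ± 0.22 (edgeR adjusted p 0.292; 0.120 with the block).

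Markers of the glomerular cells, of the tubule and of dividing cells were read in the same comparisons. With the genotype alone, only cell cycle and mesangial genes among them were called in LCDD against DH-LMP2A. In LCDD against DH-LMP2A, podocyte markers were negative for 9 of 9 genes (median -0.48; 0 called with the genotype alone, 2 lower with the block) and tubule markers for 12 of 12 (median -0.85; 0 called with either). Cell cycle genes were positive for 12 of 12, and 9 were called higher with the genotype alone, led by Mki67 (2.62 ± 0.33, edgeR adjusted p 0.00152), Top2a (2.68 ± 0.34, edgeR adjusted p 0.00152), Cdk1 and Ccnb1. Cell cycle genes were also called higher in LCDD than in WT, for 10 of 12. All 8 mesangial markers had a positive log2 difference between LCDD and DH-LMP2A, and 3 were called higher with the genotype alone: Ptn (1.09 ± 0.23, edgeR adjusted p 0.0334), Sfrp2 (1.01 ± 0.23, edgeR adjusted p 0.0395) and Serpine2 (1.29 ± 0.30, edgeR adjusted p 0.0446). Each of these 3 lost its call when LCDD replicate 1, 2 or 4 or DH-LMP2A replicate 2, 3 or 4 was left out. The summed mesangial level was 8793, 5621, 4584 and 6061 CPM in LCDD replicates 1 to 4, which ranked as they did for Mrc1. In DH-LMP2A replicates 1 to 4 it was 4203, 3372.5, 3433 and 3140 CPM, an order that Mrc1 did not share. Glomerular endothelial markers summed to 4862 to 10861 CPM in LCDD and 3427 to 8988 CPM in DH-LMP2A, with 7 of 8 positive and 0 called. In DH-LMP2A against WT, endothelial markers were negative for 7 of 8 (median -0.62; -0.77 with the block), with 0 called with the genotype alone and Cdh5 (-1.19 ± 0.25, edgeR adjusted p 0.0341) and Kdr (-1.40 ± 0.33, edgeR adjusted p 0.0493) lower with the block. The part of these cells in the members' differences was not tested.

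Among the 5 genes of growth factor, receptor and transcription factors, Irf8 was the one called with the block. Irf8, a transcription factor needed for monocyte and dendritic cell development, lies at chr8:120736358-120756694. Its level was 16.8, 34.7, 16.7 and 18.5 CPM in LCDD replicates 1 to 4, 16.2, 12.8, 8.73 and 5.86 CPM in DH-LMP2A replicates 1 to 4, and 24.4, 25.4, 11.9, 10.1 and 15.8 CPM in WT replicates 1 to 5. The lowest LCDD library was just above the highest DH-LMP2A library, and LCDD replicate 2 stood above the rest. Mrc1 and Irf8 were the 2 members whose LCDD and DH-LMP2A libraries did not overlap with LCDD higher, 5.71% of the 35, where 4.74% of all genes showed this; 0 members showed it with LCDD lower (2.89% of all genes). The log2 difference of Irf8 was 0.99 ± 0.38, edgeR adjusted p 0.254, and 1.04 ± 0.27 with the block, edgeR adjusted p 0.0489. At code A it was 0.06, and at the others 1.43, 0.93 and 1.64. Without code B, C or D the call was lost (edgeR adjusted p 0.225, 0.0790 and 0.314 with the block). Between DH-LMP2A and WT it was -0.68 ± 0.36 (edgeR adjusted p 0.468; 0.0613 with the block).

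Csf1, the ligand of the CSF1 receptor, stood at 269, 261, 170.3 and 123 CPM in LCDD replicates 1 to 4, at 224, 143, 129.5 and 100.3 CPM in DH-LMP2A replicates 1 to 4, and at 212, 278, 175, 158 and 201 CPM in WT replicates 1 to 5. Groups overlapped, and in both LCDD and DH-LMP2A replicate 4 was the lowest. Csf1r was at 22.2, 22.0, 16.5 and 11.6 CPM in LCDD, at 25.2, 14.9, 12.7 and 15.7 CPM in DH-LMP2A, and at 32.9, 58.0, 13.7, 14.1 and 16.3 CPM in WT. WT replicates 1 and 2 lay above all other libraries for this receptor, and the 3 single WT mice were within the range of the other genotypes. Spi1 was at 4.45, 6.47, 2.64 and 2.60 CPM in LCDD, at 4.41, 2.59, 1.77 and 1.66 CPM in DH-LMP2A, and at 6.34, 11.1, 2.32, 1.70 and 3.16 CPM in WT. The order of the WT libraries for Spi1 was like that for Csf1r, with replicates 1 and 2 highest. Log2 differences of LCDD from DH-LMP2A were 0.46 ± 0.28 for Csf1, 0.07 ± 0.43 for Csf1r and 0.63 ± 0.56 for Spi1, with edgeR adjusted p of 0.548, 0.963 and 0.71. Irf5, a transcription factor of inflammatory macrophages, lay between 2.24 and 11.4 CPM over all libraries.

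Leukocyte and macrophage identity was read from 7 genes, of which 6 were tested. All 6 were positive in LCDD against DH-LMP2A (median 0.63) and negative in both other comparisons (medians -0.29 against WT for LCDD and -0.84 for DH-LMP2A), and 0 were called. Ptprc, the pan-leukocyte antigen CD45, stood at 28.1, 34.6, 18.3 and 27.4 CPM in LCDD replicates 1 to 4, at 16.5, 20.8, 17.2 and 15.5 CPM in DH-LMP2A, and at 48.8, 31, 17.2, 18.8 and 24.6 CPM in WT replicates 1 to 5. LCDD libraries lay above the DH-LMP2A libraries except for replicate 3, which fell among them, and WT replicate 1 was the highest of all. The log2 difference of Ptprc between LCDD and DH-LMP2A was 0.63 ± 0.29, edgeR adjusted p 0.383 (0.153 with the block). Adgre1 had 2.30, 2.29, 1.08 and 1.42 CPM in LCDD, 2.47, 0.814, 0.399 and 0.895 CPM in DH-LMP2A, and 4.49, 7.22, 1.12, 1.25 and 1.99 CPM in WT. It was an 18.1-fold range from DH-LMP2A replicate 3 to WT replicate 2, and the 3 single WT mice were within the LCDD range. Cd68, a lysosomal glycoprotein of macrophages, had 5.64, 6.02, 3.93 and 3.71 CPM in LCDD, 5.24, 2.59, 3.42 and 2.33 CPM in DH-LMP2A, and 5.27, 12.5, 2.24, 2.41 and 4.09 CPM in WT. Groups overlapped for both genes. Laptm5, a lysosomal membrane protein of leukocytes, reached 45.7 CPM in WT replicate 2 and was 5.28 to 22.0 CPM elsewhere. Mpeg1, the pore-forming perforin-2 of macrophages, lay between 7.74 and 57.6 CPM, and Aif1 (Iba1) between 0.323 and 4.88 CPM. Ms4a7 had 39 counts in WT replicate 2 and 0 to 6 counts in each other library.

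The 4 adhesion and chemokine receptors were all positive in LCDD against DH-LMP2A (median 0.93) and all negative in DH-LMP2A against WT (median -1.12), and Ccr2 and Cx3cr1 were called with the block. Ccr2, the receptor by which inflammatory monocytes follow CCL2 out of the bone marrow, lies at chr9:124101950-124113557. It stood at 8.09, 11.8, 3.88 and 3.98 CPM in LCDD replicates 1 to 4, at 4.11, 4.70, 1.71 and 2.51 CPM in DH-LMP2A replicates 1 to 4, and at 10.2, 4.26, 4.08, 5.77 and 6.57 CPM in WT replicates 1 to 5. Both LCDD and DH-LMP2A were higher at codes A and B than at the others, so the groups overlapped although LCDD was higher at 4 of 4 codes. The log2 difference of LCDD from DH-LMP2A was 1.08 ± 0.43, edgeR adjusted p 0.284, and 1.04 ± 0.19 with the block, edgeR adjusted p 0.0122, a call lost without code B or D (edgeR adjusted p 0.0773 and 0.110). DH-LMP2A against WT gave -0.92 ± 0.41, edgeR adjusted p 0.390, and -1.30 ± 0.19 with the block, edgeR adjusted p 0.00970, lower at 3 of 3 codes. Without WT replicate 2 the block gave -1.34, edgeR adjusted p 0.0237, and without code C or D the call was lost (edgeR adjusted p 0.0527 and 0.153).

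Cx3cr1, the fractalkine receptor of patrolling monocytes and resident macrophages, lies at chr9:119901616-120068283. It stood at 2.68, 4.21, 1.51 and 1.46 CPM in LCDD replicates 1 to 4, at 3.07, 1.18, 0.742 and 0.716 CPM in DH-LMP2A replicates 1 to 4, and at 6.21, 6.54, 1.44, 1.70 and 3.08 CPM in WT replicates 1 to 5. Its 2 highest libraries were WT replicates 1 and 2, and DH-LMP2A replicate 1 was above the other DH-LMP2A libraries. DH-LMP2A against WT gave -1.39 ± 0.59, edgeR adjusted p 0.353, and -1.89 ± 0.44 with the block, edgeR adjusted p 0.0470. The call with the block was lost without WT replicate 2 (edgeR adjusted p 0.104) and without code C or D (edgeR adjusted p 0.156 and 0.295). LCDD against DH-LMP2A gave 0.78 ± 0.61, edgeR adjusted p 0.657 (0.274 with the block). The integrin chains Itgam (CD11b) and Itgax (CD11c) lay between 4.34 and 18.6 CPM and between 1.57 and 14.0 CPM. Itgax averaged 5.94 ± 2.37 CPM in the LCDD libraries against 2.49 ± 0.961 CPM in the DH-LMP2A libraries (SD, n = 4 each), a log2 difference of 1.25 ± 0.49 with an edgeR adjusted p of 0.267 (0.0920 with the block).

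**Figure D4:**
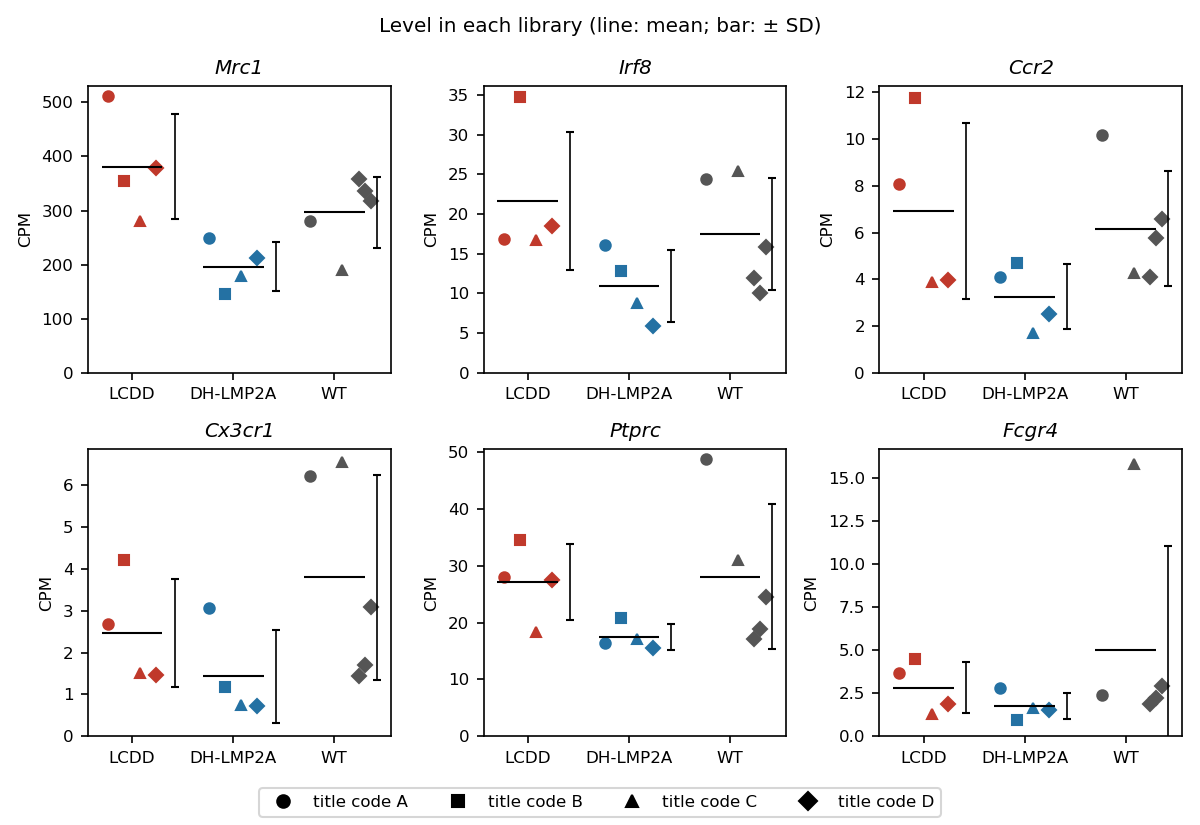
CPM of 6 members in each library, with the mean (line) and SD (bar) per genotype and symbols for the title codes A to D; the lower end of the WT bar of Fcgr4 is below 0 and not drawn. In Mrc1 and Irf8 all 4 LCDD libraries lie above all 4 DH-LMP2A libraries, in the other genes the libraries overlap, and for Fcgr4 WT replicate 2 lies far above the rest at 15.8 CPM.

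Genes of monocytes and neutrophils did not share one sign. Plac8 and Ly6c2 were positive and S100a8 and S100a9, the subunits of calprotectin, negative in LCDD against DH-LMP2A, and 0 of the 4 were called. Ly6c2, a surface antigen of inflammatory monocytes, averaged 59.4 ± 18.7 CPM in the LCDD libraries and 40.2 ± 11.6 CPM in the DH-LMP2A libraries (SD, n = 4 each) against 31.7 ± 14.5 CPM for WT (SD, n = 5), where WT replicate 1 had 6.37 CPM and the other WT libraries 32.3 to 40.5 CPM. Ly6c2 has a close relative, Ly6c1, which endothelial cells express, and the handling of shared reads is not given in the sources used here, so its level is uncertain. Plac8 reached 73.5 CPM and S100a9 33.0 CPM in WT replicate 2, the highest of the 13 libraries for both. The neutrophil marker list also had its highest sum there, at 46.2 CPM, against 11.7 to 24.5 CPM in the LCDD and DH-LMP2A libraries. Its defining marker Ly6g had a mean of 0.02 CPM in LCDD and 0.05 CPM in WT, below the floor.

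Fc gamma receptors had means of 0.498 to 2.65 CPM per kb, below their adaptors Tyrobp (15.4 CPM per kb) and Fcer1g (7.80 CPM per kb), and 0 receptors or adaptors were called in any comparison with or without the block. The genes Fcgr2b (chr1:170958617-170976547), Fcgr4 (chr1:171018920-171029761) and Fcgr3 (chr1:171051174-171064935) neighbour each other and are related in sequence, so reads may be shared between them and their split is uncertain. Fcgr1, the high-affinity receptor, lies at chr3:96282909-96293969. Its values were 1.46, 1.39, 1.13 and 0.788 CPM in LCDD replicates 1 to 4, 1.38, 0.481, 0.285 and 0.224 CPM in DH-LMP2A, and 0.453, 6.98, 0.280, 0.984 and 0.932 CPM in WT replicates 1 to 5. These rest on 5 to 38 counts per library outside WT replicate 2, which had 113, and Fcgr1 had the widest range of the tested members at 31.2-fold. Fcgr3, a low-affinity activating receptor, was at 6.29, 7.07, 2.64 and 3.03 CPM in LCDD, at 4.67, 2.22, 2.00 and 2.37 CPM in DH-LMP2A, and at 4.20, 11.9, 2.24, 2.41 and 2.88 CPM in WT. Fcgr4, an activating receptor for IgG2a and IgG2b, was at 3.64, 4.48, 1.29 and 1.85 CPM in LCDD, at 2.77, 0.963, 1.65 and 1.52 CPM in DH-LMP2A, and at 2.39, 15.8, 1.84, 2.19 and 2.92 CPM in WT. WT replicate 2 was the highest library for all 3 activating receptors, and the other libraries overlapped between genotypes.

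The inhibitory receptor Fcgr2b differed in its order. It was at 9.59, 11.3, 4.58 and 6.62 CPM in LCDD replicates 1 to 4, at 14.4, 7.92, 5.76 and 4.92 CPM in DH-LMP2A replicates 1 to 4, and at 16, 9.75, 3.12, 3.85 and 5.35 CPM in WT replicates 1 to 5. Its highest libraries were WT replicate 1 and DH-LMP2A replicate 1, both of code A, and it is also known in endothelial cells and B cells. LCDD against DH-LMP2A gave -0.04 ± 0.51 for Fcgr2b (edgeR adjusted p 0.984), against 0.97 ± 0.90 for Fcgr1, 0.75 ± 0.55 for Fcgr3 and 0.71 ± 0.69 for Fcgr4 (edgeR adjusted p 0.720, 0.629 and 0.740). DH-LMP2A against WT gave 0.11 ± 0.48 for Fcgr2b, and -1.63 ± 0.87, -0.73 ± 0.52 and -1.53 ± 0.67 for the activating receptors, with edgeR adjusted p of 0.948, 0.474, 0.597 and 0.376. Whether Fcgr2b differs from the activating receptors in these changes was not tested.

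The log2 ratio of the activating receptors (the sum of Fcgr1, Fcgr3 and Fcgr4 per kb) to Fcgr2b was 2.10, 2.06, 1.92 and 1.63 in LCDD replicates 1 to 4. It was 1.13, 0.71, 1.37 and 1.65 in DH-LMP2A replicates 1 to 4 and 0.70, 3.72, 2.41, 2.4 and 2.23 in WT replicates 1 to 5. The LCDD values lay close together and above 3 of the 4 DH-LMP2A values, while DH-LMP2A replicate 4 was just above the lowest LCDD value. WT spanned the widest range, with the lowest value of all in replicate 1 and the highest in replicate 2. The ratio was formed after the values had been seen and is given as a description.

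**Figure D5:**
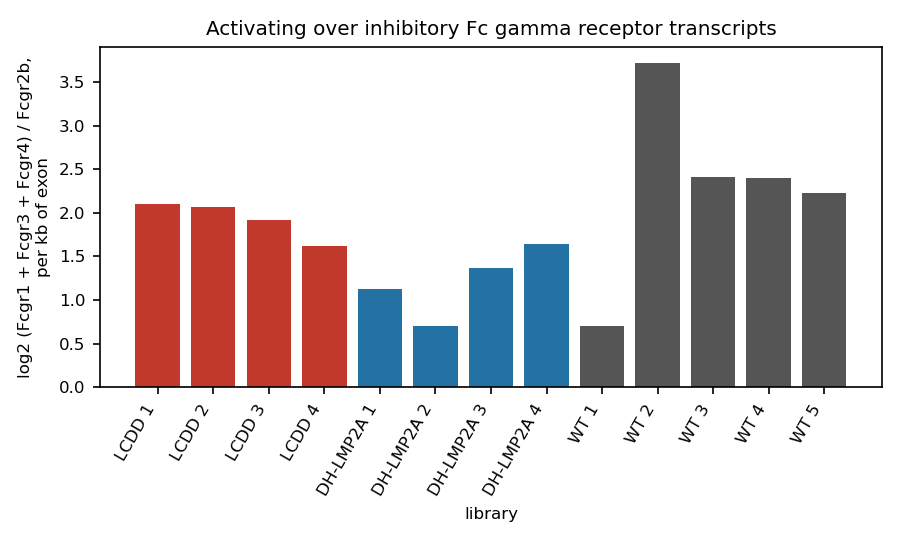
Log2 ratio of the summed activating Fc gamma receptor transcripts (Fcgr1, Fcgr3 and Fcgr4, CPM per kb) to the inhibitory Fcgr2b, 1 bar per library, coloured by genotype. LCDD libraries lie between 1.63 and 2.10, DH-LMP2A libraries between 0.71 and 1.65, and WT libraries between 0.70 and 3.72.

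Fcer1g, the FcR gamma adaptor, was at 8.93, 10.1, 3.44 and 5.28 CPM in LCDD replicates 1 to 4, at 6.88, 3.70, 3.54 and 3.31 CPM in DH-LMP2A, and at 7.60, 19.8, 3.76, 5.28 and 7.05 CPM in WT replicates 1 to 5. Tyrobp (DAP12), the adaptor of TREM receptors, was at 9.13, 15.4, 5.60 and 7.92 CPM in LCDD, at 7.70, 4.85, 3.77 and 4.25 CPM in DH-LMP2A, and at 10.4, 28.1, 4.04, 5.55 and 6.28 CPM in WT. For both adaptors DH-LMP2A replicate 1 was above the other DH-LMP2A libraries, and WT replicate 2 was the highest of all 13. Log2 differences of LCDD from DH-LMP2A were 0.67 ± 0.49 for Fcer1g and 0.89 ± 0.54 for Tyrobp, with edgeR adjusted p of 0.632 and 0.549. Trem2, a lipid receptor that signals through DAP12, had 1 to 13 counts per library.

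The other scavenger, pattern and costimulatory receptors beside Mrc1 included 1 tested member with a negative log2 difference between LCDD and DH-LMP2A. Msr1, the class A scavenger receptor, averaged 2.5 ± 0.718 CPM in the LCDD libraries and 4.79 ± 2.45 CPM in the DH-LMP2A libraries (SD, n = 4 each) against 5.25 ± 2.35 CPM for WT (SD, n = 5). The log2 difference was -0.94 ± 0.43 against DH-LMP2A and -1.07 ± 0.42 against WT, with edgeR adjusted p of 0.377 and 0.285. Cd14, the lipopolysaccharide co-receptor, averaged 18.7 ± 5.93 CPM in the LCDD libraries against 12.3 ± 2.79 CPM in the DH-LMP2A libraries (SD, n = 4 each), a log2 difference of 0.61 ± 0.24 with an edgeR adjusted p of 0.273. Clec7a (Dectin-1), the beta-glucan receptor, lay between 1.66 and 7.53 CPM, and the costimulatory ligand Cd86 between 0.222 and 1.51 CPM. Cd163, the haemoglobin scavenger receptor, had 0 to 11 counts per library.

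Among the genes of the phagosome, the oxidase and lysozymes, 5 were tested and all 5 were positive in LCDD against DH-LMP2A (median 0.47), with 0 called. Lyz2 was at 94.9, 164, 56.5 and 59.9 CPM in LCDD replicates 1 to 4, at 133, 51.3, 45.4 and 52.1 CPM in DH-LMP2A, and at 133, 121, 51.3, 58.2 and 64.4 CPM in WT replicates 1 to 5. High libraries occurred in each genotype: LCDD replicates 1 and 2, DH-LMP2A replicate 1, and WT replicates 1 and 2. The log2 difference of LCDD from DH-LMP2A was 0.41 ± 0.45, edgeR adjusted p 0.765. Lyz1, the lysozyme of Paneth cells, had 7, 7, 6 and 7 counts in LCDD, 6, 4, 6 and 5 in DH-LMP2A, and 17, 4, 5, 4 and 6 in WT (0.148 to 0.550 CPM over all libraries), and reads shared with the near-identical Lyz2 make it uncertain. Cybb, the membrane subunit gp91phox of the oxidase, lay between 3.44 and 27.7 CPM, the oxidase regulator Ncf4 between 1.09 and 5.5 CPM, and the phagosomal metal transporter Slc11a1 between 2.05 and 15.1 CPM. Lgals3 (galectin-3) lay between 3.48 and 20.1 CPM, and Gpnmb had 0 to 9 counts.

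Some further genes of these pathways were called with the block and not with the genotype alone. Of 34 tested genes on a list of other macrophage genes, 0 were called with the genotype alone. With the block, 3 were called higher in LCDD than in DH-LMP2A (3.24% of all genes) and 2 lower (2.86% of all genes). Those called higher included the tetraspanin Cd53 (log2 difference 1.55 ± 0.36, edgeR adjusted p 0.0355) and the transcription factor Maf (0.63 ± 0.14, edgeR adjusted p 0.0272). The lipase Pla2g7 was called lower (-0.78 ± 0.18, edgeR adjusted p 0.0362). Against WT, DH-LMP2A was lower for 3 of the 34 with the block (1.58% of all genes), Cd84 (-0.83, edgeR adjusted p 0.0220), Tlr2 (-1.33, edgeR adjusted p 0.0244) and Lcp1 (-1.24, edgeR adjusted p 0.0341). Of the 5 tested ligands that attract or sustain monocytes, 0 were called with the genotype alone. The ligand of the Cx3cr1 receptor, Cx3cl1 (fractalkine), averaged 92.6 ± 33.5 CPM in the DH-LMP2A libraries and 151 ± 46.9 CPM in the LCDD libraries (SD, n = 4 each) against 203 ± 64.5 CPM for WT (SD, n = 5). DH-LMP2A against WT gave -1.13 ± 0.29 for Cx3cl1, edgeR adjusted p 0.115, and -1.37 ± 0.25 with the block, edgeR adjusted p 0.0251. Receptor and ligand were both called lower in DH-LMP2A than in WT with the block, as were the endothelial markers Cdh5 and Kdr. With the genotype alone 0 of these genes were called. The Cx3cr1 call with the block was lost without WT replicate 2 (edgeR adjusted p 0.104). A link between these genes was not tested. Of the other oxidase subunits and partners, 5 were tested; 0 were called with the genotype alone, and with the block 1 was called, higher in DH-LMP2A than in WT. Among 15 tested genes of Fc receptor and ITAM signalling, 14 were positive in LCDD against DH-LMP2A (median 0.25), and 0 were called in any comparison with the genotype alone.

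Markers of lymphocytes had low sums, and those of dendritic cells a higher one that came mostly from 1 gene. T and NK cell markers, 12 genes, summed to 11.7 to 17.1 CPM in LCDD, 8.26 to 11.6 CPM in DH-LMP2A and 7.88 to 20.5 CPM in WT, with 11 of 12 positive in LCDD against DH-LMP2A and 0 called. B and plasma cell markers, 11 genes, summed to 8.20 to 12.1 CPM in LCDD, 6.93 to 16.4 CPM in DH-LMP2A and 15.1 to 60.5 CPM in WT. Jchain, the joining chain of polymeric immunoglobulin, was lower than in WT in LCDD (-3.07 ± 0.60, edgeR adjusted p 0.0194) and in DH-LMP2A (-3.41 ± 0.62, edgeR adjusted p 0.0295). The dendritic cell list, 6 of 9 genes tested, summed to 120.3 to 132.8 CPM in LCDD, 77.0 to 105.0 CPM in DH-LMP2A and 102.7 to 136.1 CPM in WT, so that LCDD did not overlap DH-LMP2A. Zbtb46 alone averaged 118 CPM in LCDD, 84.2 CPM in DH-LMP2A and 115 CPM in WT. All 6 tested dendritic cell genes were positive in LCDD against DH-LMP2A, with 0 called with the genotype alone. The list included 2 that were higher in LCDD than in DH-LMP2A with the block, Flt3 (1.5 ± 0.31, edgeR adjusted p 0.0235) and Zbtb46 (0.49 ± 0.12, edgeR adjusted p 0.0416); Zbtb46 is also known in endothelium. Irf8 and Itgax are also genes of dendritic cells, and Irf8 of B cells, so these members do not mark macrophages alone. The part of dendritic cells in the Irf8 difference was not tested.

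Tubule markers and Y-linked genes also differed between libraries. The tubule list summed to 832 to 2580 CPM in LCDD, 1099 to 4524 CPM in DH-LMP2A and 285 to 3909 CPM in WT. With a tubule score as a covariate, Ptprc was called beside Mrc1, Irf8 and Ccr2 in LCDD against DH-LMP2A (0.76, edgeR adjusted p 0.0410), and Ccr2, Cx3cr1, Irf8 and Ptprc were called lower in DH-LMP2A than in WT. Each time this was 11.4% of the 35 members, where 6.00% and 4.30% of all genes were called with this score. Y-linked genes summed to 18.0 to 220.0 CPM in LCDD, 68.3 to 223 CPM in DH-LMP2A and 0 to 27.0 CPM in WT, so sex, which the labels do not give, and genotype cannot be fully told apart in the comparisons with WT. At codes A to D they summed to 173.9, 21.1, 220.0 and 18.0 CPM in LCDD and 110.8, 222.6, 68.3 and 126.0 CPM in DH-LMP2A. The mix of sexes may thus also differ between LCDD and DH-LMP2A libraries of the same code. No fit held both the block and a Y-linked score. With a Y-linked score as a covariate, 0 members were called in any comparison. Of all genes, 2.19% were called with it in LCDD against DH-LMP2A, 0.137% in LCDD against WT and 0.215% in DH-LMP2A against WT.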

How the data were processed

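Messenger RNA of glomeruli was measured in 13 libraries. The deposited table holds raw counts per gene, which the authors made with STAR 2.4.0a and featureCounts (Subread 1.5.0-p3) on mm10 (GRCm38), per the submitters' processing notes, which also name DESeq2; the library kit is stranded, per the labels. The strand setting, the handling of shared reads and the annotation are not given in the sources used here. All 13 libraries entered 1 edgeR 4.0.16 quasi-likelihood fit (R 4.3.3, limma 3.58.1) with TMM factors and filterByExpr by genotype (minimum count 10), which kept 16738 of 46958 genes and at least 99.9% of the counts of every library. P-values were adjusted by Benjamini-Hochberg over all genes tested, with a threshold of 0.05. The standard error is the log2 difference divided by the square root of F, and log2 CPM has a prior count of 2. The script was tested on simulated data, with 2-fold and 4-fold changes put into LCDD. With the genotype alone, 26% of the 2-fold and 75% of the 4-fold changes were called in LCDD against DH-LMP2A. In LCDD against WT these were 34% and 82%, so most 2-fold changes were missed.

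Alternatives were DESeq2 1.42.0, RLE size factors, 2 other filters (none, or a mean of 1 CPM), the genotypes compared alone, the title code as a block, tubule and Y-linked scores, and each library left out. Same-code libraries deviated together: the correlation of their deviations from the genotype means was 0.593, 0.153, 0.488 and 0.450 for LCDD and DH-LMP2A (codes in rising order), 0.400, 0.127 and 0.304 for LCDD and WT, and 0.492, 0.160 and 0.458 for DH-LMP2A and WT. All were over 0.1, and on this basis alone the codes were taken to pair the libraries. Correlations between libraries of different codes were not computed beside them, and what the codes stand for was not tested. Libraries of one genotype differed by more than sampling noise (chi-square per degree of freedom 12.6 to 234 over 22 pairs). The labels say which libraries are pools or single mice but not how the replicates relate beyond that, so p-values measure the spread between these libraries. Floors cover counting error only.

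The members and gene lists were chosen with earlier results of these data known. Values in every library were given for each member called in any comparison, with or without the block, and, whatever the p, for a set of members (Fcgr1, Fcgr2b, Fcgr3, Fcgr4, Fcer1g, Tyrobp, Adgre1, Cd68, Csf1, Csf1r, Cx3cr1, Ccr2, Mrc1, Lyz1, Lyz2, Ptprc and Spi1). Other members are given by range and counts, and from other lists called genes are named, chosen by smallest p and at most 4 per list and comparison. Not every gene that this rule selects is named, and the others stand in the counts. Some genes on these lists are not reported here.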

Additional observations from a re-analysis of the deposited data

Results flagged for a closer look

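In 105 sets of libraries (35 members in 3 genotypes), the highest or lowest library was compared with the rest of its genotype, and 7 stood apart by Dixon's criterion, where chance gives about 5.25. Irf8 had a log2 CPM of 5.12 in LCDD replicate 2, above the other LCDD libraries at 4.07 to 4.21. In WT replicate 2, Plac8 had 6.20 (other WT libraries 3.91 to 4.55) and Fcgr4 had 3.99 (others 0.94 to 1.59). Ly6c2 had 2.69 in WT replicate 1, below the other WT libraries at 5.02 to 5.34. In DH-LMP2A replicate 1, Fcer1g had 2.80 (others 1.76 to 1.92), Cd14 had 4.05 (others 3.44 to 3.49) and Lyz2 had 7.06 (others 5.51 to 5.71).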

How the results depend on the processing

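No called value changed sign under any setting, and in LCDD against WT 0 members were called under any setting. In LCDD against DH-LMP2A, 0 members were called with the genotype alone, 1 by DESeq2 (Mrc1), 3 with the replicate block and 4 with the tubule score. Leaving out each replicate in turn gave 0 to 1 members, always Mrc1, after LCDD replicate 3 or DH-LMP2A replicate 1 was left out, and 0 to 0 in both other comparisons. Mrc1 alone is 2.86% of the 35, and without LCDD replicate 3 or DH-LMP2A replicate 1, 2.47% and 2.89% of all genes were called. In DH-LMP2A against WT, the replicate block gave 2 members and the tubule score 4. Further settings were chosen after seeing the data. With the block and code A, B, C or D left out, LCDD against DH-LMP2A gave 3, 1, 4 and 0 members, where 4.00%, 1.58%, 6.31% and 0.424% of all genes were called; Mrc1 was among the first 3 counts. DH-LMP2A against WT gave 7, 0 and 0 with code A, C or D left out, where 9.44%, 0.836% and 0.257% of all genes were called. It gave 1 (Ccr2) with the block and without WT replicate 2, where 1.58% of all genes were called. These fits also hold fewer libraries, and the causes of the changed counts were not tested.

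Counts over all genes moved too. For LCDD against DH-LMP2A, LCDD against WT and DH-LMP2A against WT, 334, 308 and 105 genes were called with the genotype alone, 812, 726 and 458 by DESeq2 and 1021, 536 and 562 with the replicate block. The tubule score gave 1004, 284 and 719, the Y-linked score 366, 23 and 36, and the compared genotypes alone 213, 185 and 77. Leaving out 1 replicate gave 113 to 484, 159 to 441 and 29 to 407. Without the 3 single WT mice, 54 and 69 genes were called in the comparisons with WT, and the members' median log2 difference was -0.90 and -1.39; with the Y-linked score it was -1.05 and -1.92. The block changed no call of a named member other than those given in the report. Depth limits Ms4a7, Trem2, Cd163, Lyz1 and Gpnmb, whose differences were not detectable at these counts, and leaves Fcgr1 and Cd86 imprecise.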
